A study of Mus musculus with 24 samples.

Results

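The genes described here are 10 transcripts of the endoplasmic reticulum unfolded protein response: Hspa5, Hsp90b1, Sdf2l1, Creld2, Manf, Pdia4, Dnajb9, Herpud1, Xbp1 and Ddit3. They were chosen by name, as the rows of the deposited count table that carry these symbols, and make up 10 of its 55421 genes. All 10 had enough reads to enter the test, as did 13583 genes in total. Ddit3 has a further row under a different gene identifier, which overlaps the start of the tested one and held 0 reads in every mouse.

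RNA was measured by polyA-selected RNA-seq of hepatocytes isolated by liver perfusion from 24 male mice, 6 in each of 4 groups, with 11 mice in batch 1 and 13 in batch 2 and both batches in every group. Young ND mice were C57BL/6N aged 6 months on a normal diet, and young HFD mice were of the same strain and age on a high-fat diet with 60% of its energy from fat. Old ND and old HFD mice were C57BL/6J aged 24 months on the same diets, and the feeding lasted 9 weeks in all groups. The labels give the substrains above, whereas the study names C57BL/6 for both ages and states ages that differ from the labels. By the labels, substrain and age cannot be told apart. The sources also differ on which normal diet was fed.

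The endoplasmic reticulum folds secreted and membrane proteins, and hepatocytes, which make most of the plasma proteins, depend on it heavily. When unfolded protein accumulates, membrane sensors respond: IRE1 (Ern1) splices Xbp1 mRNA, PERK (Eif2ak3) slows translation and favours ATF4 and its target Ddit3, and ATF6 is cut in the Golgi into a transcription factor. XBP1 and ATF6 are known to induce chaperones and degradation factors, often through a promoter sequence called the ER stress response element (ERSE).

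Young ND mice had 15134973 to 22185069 reads counted on genes and young HFD mice 15458168 to 17807883, whereas old ND mice had 13692834 to 17676870 and old HFD mice 9200332 to 13517632. The 10 genes together took between 0.254% and 0.535% of the reads of a mouse. CPM is the count per 1000000 reads of the library after TMM scaling. The 7 hepatocyte markers used as a check, among them Alb and Apoa1, summed to 71766 to 151844 CPM in 23 mice. Old ND replicate 4 stood apart at 41716 CPM, and it had the highest macrophage (784 CPM), endothelial (544 CPM), stellate (391 CPM) and plasma cell (218 CPM) sums of all mice. Markers of other liver cells were much lower but differed between groups: all 7 macrophage markers were called higher in old ND against young ND, and their summed level ran from 1.21 to 52.7 CPM in young ND and from 32.6 to 784 CPM in old ND. In old HFD against young ND the same 7 were called higher, at 34.8 to 408 CPM, as were 6 of 6 endothelial and 5 of 6 stellate markers, while of the 7 hepatocyte markers 1 was called higher and 2 lower. The 2 tested T cell markers and the 1 tested B cell marker were called higher in old ND and in old HFD against young ND. The T cell sums were at most 7.48 CPM. With HFD in young mice 0 of the 7 macrophage, 1 of the 6 endothelial and 1 of the 6 stellate markers were called, but each had a positive log2 fold change and an unadjusted p under 0.05, with medians of 2.10, 1.51 and 1.62. With age on HFD edgeR called 0 markers of these 3 lists, with 2, 0 and 1 under an unadjusted p of 0.05, and the macrophage median was 0.96. Their part in the results on the 10 genes and the wider lists was not tested. Pancreatic acinar markers, another secretory cell, summed to at most 0.739 CPM. In bulk RNA, fewer cells of a type and less RNA per cell cannot be told apart.

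The sequences below show the promoters whose upstream bases held an ERSE, and the related element of Herpud1, to show which of the 10 genes carry these elements of the response. The search covered the 250 bases before the RefSeq start of each gene (build GRCm38.p6, RefSeq promoter table) on both strands, and 9 of the 10 genes had an entry. ERSE was spelled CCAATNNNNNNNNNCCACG and ERSE-II ATTGGNCCACG, and the capitals mark their fixed letters, on either strand. For Hsp90b1 only the longest stretch of the window free of annotated exons is shown, 185 bases. It is chr10:86705510-86705694 on the minus strand and holds 2 ERSE matches. For Creld2 all 250 bases are shown, chr15:88819396-88819645 on the plus strand, with 1 match on the opposite strand. The Hspa5 match is chr2:34772025-34772043 on the plus strand and the Herpud1 match is chr8:94386377-94386387 on the plus strand.
Hsp90b1 promoter: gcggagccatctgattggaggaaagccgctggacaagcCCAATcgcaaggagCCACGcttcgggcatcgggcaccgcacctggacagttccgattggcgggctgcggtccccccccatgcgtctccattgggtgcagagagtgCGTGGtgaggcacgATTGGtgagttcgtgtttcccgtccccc
Creld2 promoter: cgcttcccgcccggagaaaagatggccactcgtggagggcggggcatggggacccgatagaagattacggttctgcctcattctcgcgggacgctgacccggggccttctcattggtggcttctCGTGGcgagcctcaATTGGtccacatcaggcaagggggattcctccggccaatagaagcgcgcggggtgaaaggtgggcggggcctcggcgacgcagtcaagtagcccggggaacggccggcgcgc
Hspa5 ERSE match: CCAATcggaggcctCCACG
Herpud1 ERSE-II match: ATTGGgCCACG

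ERSE was found in 3 of the 9 promoters (Hspa5, Hsp90b1 and Creld2), compared with 0.113% of 32851 promoter entries of the same length. ERSE-II was found in 1 of the 9 (Herpud1), compared with 0.0304% of entries. ERSE and ERSE-II were searched as known elements of this response, and the genes were chosen as its members. A higher share here than among all entries therefore follows from the choice and is no separate evidence about these genes. The UPRE core TGACGTG occurred in 1 of the 9 (Hspa5) and in 1.65% of entries, and the shorter CRE-like core TGACGT, which lies within that same Hspa5 match, also in 1 of the 9 and in 6.47% of entries. The Hspa5 ERSE lies inside an exon of the GENCODE annotation, whose first exon begins upstream of the RefSeq start. No spelled element was found in the windows of Xbp1, Dnajb9, Pdia4, Sdf2l1 or Ddit3. A match of letters is a description of the window and was not tested as a binding site.

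Levels were compared between genes per kilobase of annotated exon (GENCODE vM21, GRCm38), as CPM per kb averaged over the 24 mice. Hsp90b1 and Hspa5 were the most abundant, at 312 CPM per kb (range 210.5 to 668) and 295 CPM per kb (range 183 to 434), and their ranges overlapped. Herpud1 at 139 and Pdia4 at 123 CPM per kb followed, also with overlapping ranges, and then Xbp1 at 64.8 CPM per kb. Creld2, Manf, Sdf2l1 and Dnajb9 lay close together between 37.8 and 29.3 CPM per kb, and their order is not separated by the spread over mice. Ddit3 was far lower, at 4.30 CPM per kb with a range of 2.55 to 8.46, which did not reach the lowest mouse of any other gene.

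The main chaperone, Hspa5 (chr2:34771970-34777547, plus strand), encodes BiP, which holds unfolded chains and keeps the sensors inactive. Its level was 1010.4, 1389 and 1669.7 CPM (lowest, median and highest mouse) in young ND, 816, 1358 and 1836 CPM in young HFD, 932, 958 and 1415 CPM in old ND, and 776, 1229 and 1630.4 CPM in old HFD. The 4 groups overlapped throughout, and the highest mouse had 2.37 times the level of the lowest. Against young ND, the log2 fold change of Hspa5 was -0.02 for young HFD, -0.38 for old ND and -0.19 for old HFD, and none of these passed the test (adjusted p = 0.977, 0.293 and 0.503, by quasi-likelihood F tests in edgeR with p-values adjusted over all tested genes by the Benjamini-Hochberg method).

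Hsp90b1 (chr10:86690209-86705509, minus strand) encodes GRP94, the HSP90 chaperone of the endoplasmic reticulum. It measured 865, 1111 and 1267 CPM (lowest, median and highest) in young ND, 849, 1314 and 1553 CPM in young HFD, 919, 1063 and 1482 CPM in old ND, and 985, 1360.1 and 2694 CPM in old HFD. The old HFD median exceeded the young ND maximum, but the groups overlapped, and 1 old HFD mouse, replicate 4, stood at 2694 CPM. In old HFD mice Hsp90b1 exceeded its young ND level by a log2 fold change of 0.55 (SE 0.205, 95% interval 0.12 to 0.97, adjusted p = 0.0457 from edgeR), and was the only one of the 10 genes called in this comparison. The log2 fold change was 0.18 in batch 1 and 0.89 in batch 2, and it was 0.36 without old HFD replicate 4 (adjusted p = 0.140). Of 24 fits that each left out 1 mouse, 12 kept the call, with log2 fold changes from 0.36 to 0.67 over all 24. The call was lost without young ND replicate 1, 2, 4, 5 or 6, young HFD replicate 2, 4 or 6, old ND replicate 1 or 6, or old HFD replicate 2 or 4. The annotation places 15.7% of the Hsp90b1 exon bases under other gene models, 1 of them on the opposite strand, and the counting method does not state how such reads were handled.

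Pdia4 and Sdf2l1 assist folding beside BiP. Pdia4 (chr6:47796141-47813430, minus strand), a protein disulfide isomerase, spanned 244 to 369 CPM in young ND, 201 to 425 CPM in young HFD, 228 to 346 CPM in old ND and 209.7 to 321 CPM in old HFD. Its lowest p came from old HFD against young HFD, a log2 fold change of -0.33 (SE 0.167, adjusted p = 0.259 from edgeR), with -0.44 in batch 1 and -0.27 in batch 2. Sdf2l1 (chr16:17130138-17132383, minus strand), a partner of the BiP cochaperones, spanned 33.6 to 50.02 CPM in young ND and 14.8 to 57.1 CPM in young HFD. In old ND it spanned 22.8 to 49.6 CPM and in old HFD 15.1 to 51.9 CPM. Between old HFD and young ND its log2 fold change was -0.37 (adjusted p = 0.311 from edgeR), with -0.95 in batch 1 and 0.16 in batch 2.

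Creld2 and Manf are secreted or lumenal proteins known as sensitive markers of endoplasmic reticulum stress. Creld2 (chr15:88819646-88826683, plus strand) measured 36.0, 51.7 and 68.6 CPM (lowest, median and highest) in young ND, 20.3, 59.5 and 76.9 CPM in young HFD, 26.3, 40.2 and 84.8 CPM in old ND, and 27.1, 43.1 and 115 CPM in old HFD. Its lowest and highest mice, young HFD replicate 3 and old HFD replicate 4, differed by 5.65-fold, the widest range of the 10 genes, while the group means stayed between 47.2 and 54.6 CPM. Creld2 differed between old HFD and young ND by a log2 fold change of -0.06 (95% interval -0.74 to 0.63, adjusted p = 0.913 from edgeR), made of -0.63 in batch 1 and 0.55 in batch 2. Manf (chr9:106838312-106891979, minus strand) spanned 109.7 to 165 CPM in young ND, 71.2 to 170.2 CPM in young HFD, 82.7 to 158 CPM in old ND and 70.3 to 209.9 CPM in old HFD, again with overlap of all groups. Its log2 fold change between old HFD and young ND was -0.19 (adjusted p = 0.536 from edgeR), -0.55 in batch 1 and 0.17 in batch 2.

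Dnajb9 and Herpud1 act in protein disposal. Dnajb9 (chr12:44205559-44210326, minus strand), or ERdj4, is a BiP cochaperone that also represses IRE1. It measured 83.2, 91.6 and 103 CPM (lowest, median and highest) in young ND, 50.8, 70.5 and 104 CPM in young HFD, 48.4, 64.0 and 79.9 CPM in old ND, and 39.9, 63.0 and 103 CPM in old HFD. Each of the 6 old ND mice lay below each of the 6 young ND mice, as was the case for 1.72% of all tested genes, and young ND was the tightest group, with a coefficient of variation of 8.24% compared with 20.7% to 32.1% in the others. Dnajb9 differed between old ND and young ND by a log2 fold change of -0.52 (SE 0.187, adjusted p = 0.0831 from edgeR), -0.54 in each batch, and between old HFD and young ND by -0.48 (SE 0.186, adjusted p = 0.0505), with -0.27 in batch 1 and -0.75 in batch 2. Without old ND replicate 4 the value in old ND was -0.46 (adjusted p = 0.216). Herpud1 (chr8:94386438-94395377, plus strand), a membrane scaffold of the degradation complex, spanned 258 to 462 CPM in young ND and 197 to 539 CPM in young HFD. In old ND it spanned 155 to 362 CPM and in old HFD 157 to 421 CPM. The log2 fold change of Herpud1 was -0.48 in old ND against young ND (SE 0.225, adjusted p = 0.203 from edgeR) and 0.38 in old HFD against old ND (SE 0.224, adjusted p = 0.327), and without old ND replicate 4 these were -0.37 (adjusted p = 0.423) and 0.30 (adjusted p = 0.442).

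Of the response's own transcription factors, Xbp1 (chr11:5520659-5525893, plus strand) measured 197, 236 and 264 CPM (lowest, median and highest) in young ND, 175, 188 and 223 CPM in young HFD, 185, 212 and 285 CPM in old ND, and 151, 192 and 229 CPM in old HFD. The HFD groups lay toward the lower end at both ages, with overlap. Its log2 fold change with HFD was -0.27 in young mice (SE 0.125, adjusted p = 0.204 from edgeR) and -0.22 in old mice (SE 0.126, adjusted p = 0.316), with a negative value in each batch. Counts per gene do not separate spliced from unspliced Xbp1 mRNA. Ddit3 (chr10:127290774-127296288, plus strand) encodes CHOP, the proapoptotic factor downstream of PERK, and rested on 62 to 267 reads per mouse. Its level was 4.97 to 7.95 CPM in young ND, 5.03 to 9.25 CPM in young HFD, 4.37 to 14.5 CPM in old ND and 4.99 to 9.72 CPM in old HFD. Ddit3 gave no call in any comparison, and the interval of its log2 fold change between old ND and young ND ran from -0.25 to 0.60.

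**Figure D1:**
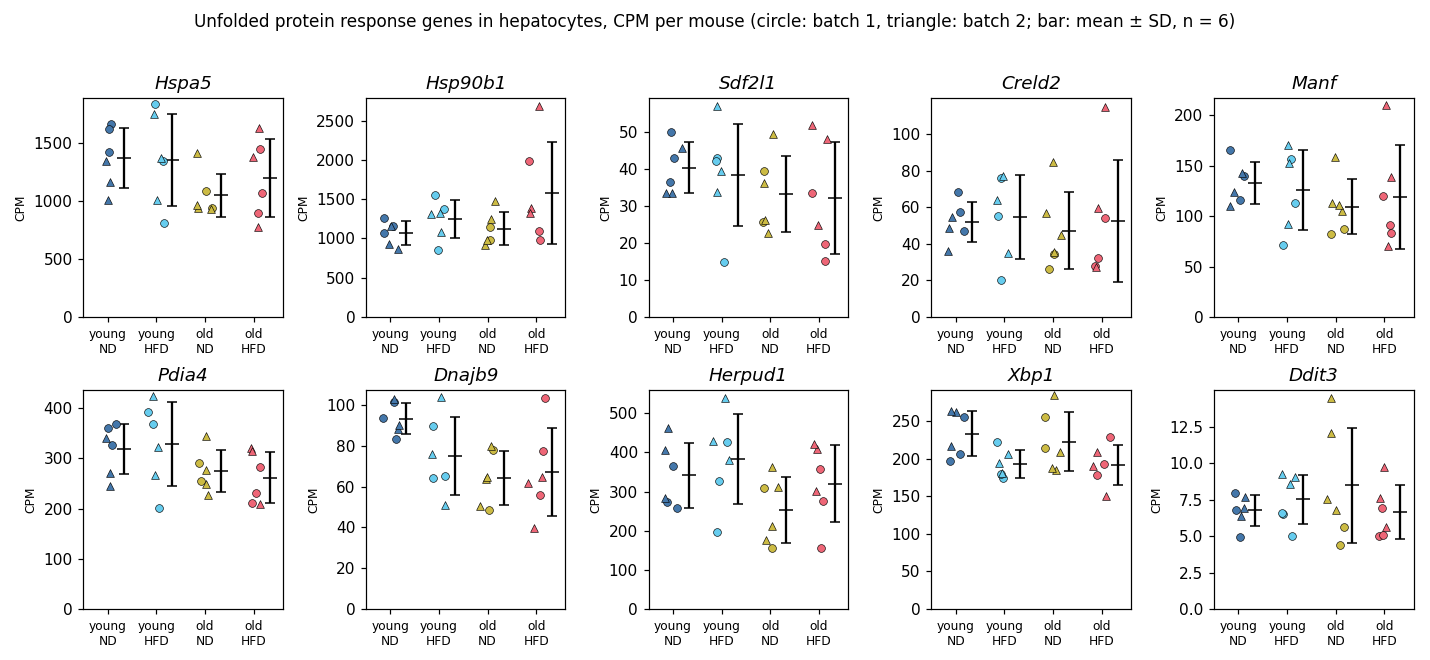
CPM of each of the 10 genes (vertical axes, from 0) in each of the 24 mice by group (horizontal axes), with circles for batch 1, triangles for batch 2 and bars for the mean ± SD of 6 mice. Groups overlap for nearly every gene, Dnajb9 lies at 83.2 to 103 CPM in young ND and 48.4 to 79.9 CPM in old ND, and Hsp90b1 has 1 old HFD mouse at 2694 CPM.

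The design asks how the diet acts at each age, how age acts on each diet, and whether the diet acts differently with age. Throughout, age stands for age and substrain together, which by the labels cannot be told apart. With HFD in young mice, 0 of the 10 genes were called by edgeR, where 3.5% of all tested genes were, and 1 of them, Xbp1, had an unadjusted p under 0.05, compared with 21.2% of all tested genes. With HFD in old mice, 0 were called, compared with 3.01% of all genes, and 1 (Hsp90b1, log2 fold change 0.49, adjusted p = 0.160 from edgeR) had an unadjusted p under 0.05, compared with 22% of all. With age on the normal diet, 0 were called, compared with 8.5% of all genes, and 2 (Dnajb9 and Herpud1) had an unadjusted p under 0.05, compared with 22.2% of all. With age on HFD, 0 were called, compared with 2.24% of all genes, and 0 had an unadjusted p under 0.05, compared with 21% of all. DESeq2 and limma on the deposited FPKM also called 0 of the 10 in each of these 4 comparisons. In the same order, DESeq2 called 1255, 1123, 1676 and 859 of all genes. With limma on log2(FPKM + 1) the counts over all genes were only 127, 108, 27 and 29. The edgeR counts over all genes themselves moved when 1 mouse was left out. With HFD in young mice the 475 called genes became 146 without young ND replicate 2 and 998 without old HFD replicate 2, and with HFD in old mice the 409 became 84 without old ND replicate 2 and 823 without old HFD replicate 3. With age on the normal diet the 1155 became 586 without old ND replicate 4 and 1592 without old HFD replicate 2, and on HFD the 304 became 40 without young HFD replicate 4 and 813 without old HFD replicate 3.

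When both changed, in old HFD against young ND, edgeR called 1 of the 10 genes (Hsp90b1, higher), a share below the 30.2% of all tested genes called there, and 3 had an unadjusted p under 0.05 (Hsp90b1, Dnajb9 and Xbp1), compared with 42.3% of all tested genes. DESeq2 also called 1 of the 10, and limma called 0. Of all genes DESeq2 called 4675 there, and limma on log2(FPKM + 1) called 2013. The test of the age by diet interaction called 0 of the 10 genes by edgeR, with 0 of them under an unadjusted p of 0.05, and 0% of all tested genes, of which 1247 had an unadjusted p under 0.05. DESeq2 and limma called 0 of the 10 there as well, and 4 and 0 of all genes. The 95% interval of the log2 fold change stayed within 1 in either direction for all 10 genes in all 5 comparisons between groups, and for 9 of the 10 in the interaction.

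The median log2 fold change over the 10 genes was 0.01 with HFD in young mice and 0.10 with HFD in old mice, where the medians of all tested genes were 0.01 and -0.01. It was -0.30 with age on the normal diet, where 8 of the 10 values were negative, -0.17 with age on HFD and -0.19 in old HFD against young ND, with 9 of the 10 negative in each of the latter. The medians of all tested genes were 0.01, 0.01 and 0.04 there, and 49.1%, 48.7% and 46.5% of them were negative. The comparisons share groups of mice, so these values are not separate evidence. Direction differed between batches in some comparisons: with HFD in young mice 8 of the 10 genes were lower in batch 1 and 2 of the 10 in batch 2, and in old HFD against young ND 9 of the 10 were lower in batch 1 and 4 in batch 2. With age on the normal diet 9 were lower in batch 1 and 7 in batch 2. On HFD 7 were lower with age in each batch, and with HFD in old mice 3 in each batch. The batch-by-group difference itself was not tested.

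**Figure D2:**
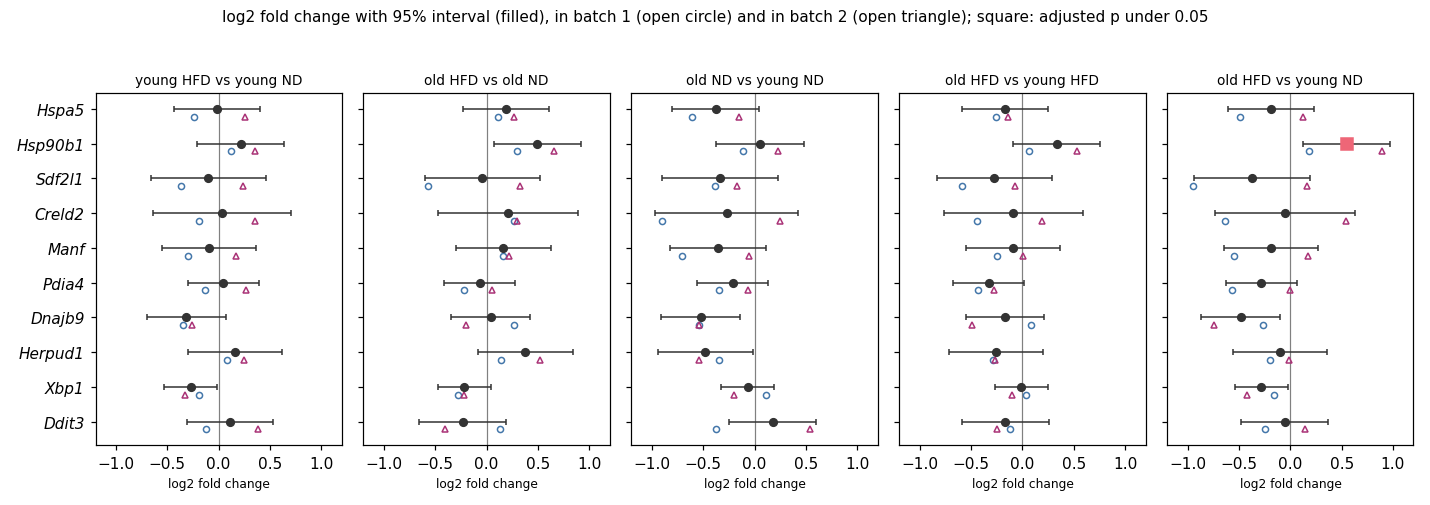
The log2 fold change (horizontal axes) of each of the 10 genes (rows) in the 5 comparisons between groups, with filled points and bars for the fit over both batches and its 95% interval, and open circles and triangles for batch 1 and batch 2 alone. Only Hsp90b1 in old HFD against young ND, at 0.55, passed the threshold (red square), and several genes have open symbols on both sides of 0.

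The clearest pattern was between mice of the same group. After the group and batch means were removed from log2 CPM, the mean of the 10 genes ran from -1.28 (young HFD replicate 3) and -1.24 (old HFD replicate 6) to 1.05 (young HFD replicate 1) and 1.21 (old HFD replicate 4), in units of each gene's own SD. These 4 mice came from both HFD groups, while young ND mice lay between -0.75 and 0.68 and old ND mice between -0.55 and 0.79. The fit removed a mean per group and a batch difference shared by all groups, so a group's own batch difference remained. In young ND the batch 1 mice lay at -0.04, 0.68 and 0.33, and the batch 2 mice at -0.75, 0.05 and -0.29. The SD of log2 CPM within a group had a median over the 10 genes of 0.24 in young ND and 0.43 in young HFD mice, and of 0.32 among old ND and 0.49 among old HFD mice, compared with 0.24, 0.29, 0.34 and 0.54 for all tested genes. The spread was not tested between groups.

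Hspa5 was compared with each of the other 9 genes over the 24 mice on these residuals, with a two-sided permutation test of 100000 shuffles of mice within group and batch and Benjamini-Hochberg adjustment over the 9 relations. A group's own batch difference, which stayed in the residuals, is part of r, and the shuffles left it in place. Hspa5 and Manf had r = 0.94 (rho = 0.93, permutation p = 4e-05, adjusted p = 9e-05), and Hspa5 and Creld2 had r = 0.93 (rho = 0.93, permutation p = 2e-05, adjusted p = 9e-05). Sdf2l1 (r = 0.86), Pdia4 (r = 0.85) and Hsp90b1 (r = 0.82) followed, with adjusted permutation p of 9e-05, 0.00259 and 9e-05. Dnajb9 was weaker, at r = 0.53 (rho = 0.54, adjusted permutation p = 0.0261). Ddit3 (r = 0.38, adjusted permutation p = 0.128), Xbp1 (r = 0.03, adjusted permutation p = 0.897) and Herpud1 (r = -0.12, adjusted permutation p = 0.718) did not pass the threshold.

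The relation was present in each batch. Hspa5 and Manf had r = 0.91 over the 11 mice of batch 1 and 0.96 over the 13 of batch 2, and Hspa5 and Creld2 had 0.94 and 0.93. Without the 2 mice farthest from the Hspa5 median, the values were 0.92 for Manf, 0.91 for Creld2, 0.82 for Sdf2l1, 0.78 for Pdia4 and 0.82 for Hsp90b1, and 0.41 for Dnajb9. Without old ND replicate 4, an alternative chosen after seeing the data, r was 0.94 for Manf, 0.95 for Creld2 and 0.83 for Hsp90b1. Within single groups of 6 mice, on log2 CPM from which batch was not removed, r of Hspa5 and Pdia4 ran from 0.60 in old HFD to 0.97 in young ND.

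**Figure D3:**
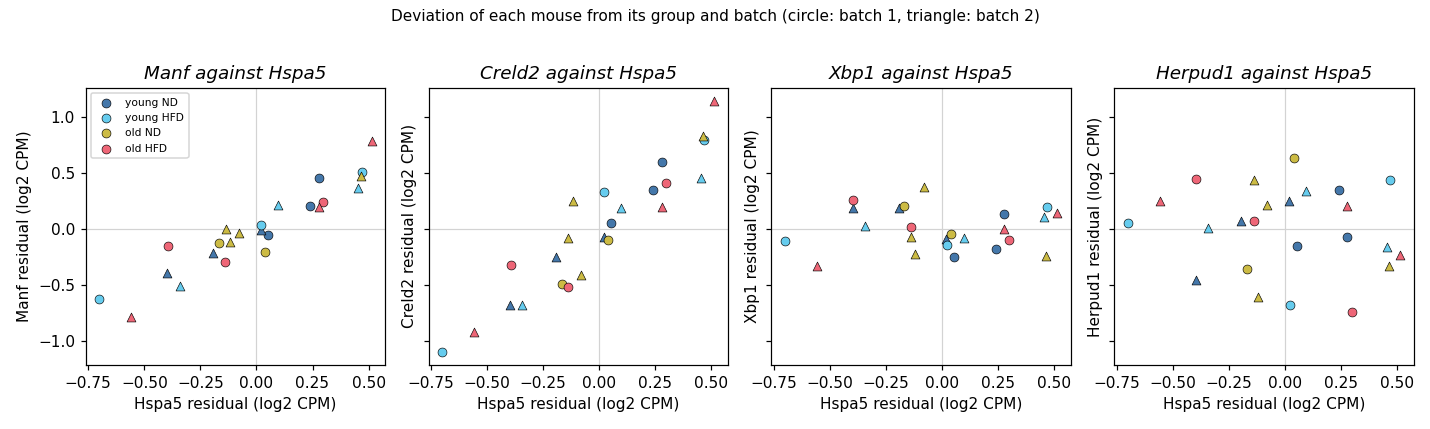
Residual log2 CPM of Manf, Creld2, Xbp1 and Herpud1 (vertical axes) against that of Hspa5 (horizontal axes) in 24 mice, coloured by group, with circles for batch 1 and triangles for batch 2. Manf and Creld2 rise with Hspa5 (r = 0.94 and 0.93) across all 4 groups, and Xbp1 and Herpud1 do not (r = 0.03 and -0.12).

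Among Hspa5, Hsp90b1, Sdf2l1, Creld2, Manf and Pdia4, grouped after their values were seen, the 15 pairs had r from 0.62 to 0.95, the highest being Creld2 with Manf. In batch 1 the same pairs ran from 0.51 to 0.96 and in batch 2 from 0.73 to 0.96. The 24 pairs of these 6 genes with Dnajb9, Herpud1, Xbp1 and Ddit3 ran from -0.31 to 0.53. All points share a library, so its depth and composition enter both axes. The r of the mean of the 10 genes was -0.15 with total reads, -0.07 with the TMM factor, 0.07 with the summed hepatocyte markers, 0.08 with plasma cell markers, -0.10 with macrophage markers and -0.23 with endothelial markers, all on residuals of 24 mice and without a test. Plasma cells, which carry much endoplasmic reticulum, had summed markers of 11.2 to 30.4 CPM in young ND and 11.1 to 87.1 CPM in old HFD, with old HFD replicate 4 the highest there. In old ND, where the log2 fold change of Hsp90b1 against young ND was 0.05, the plasma cell sum was 32.2 to 218 CPM, above every young ND mouse. Of their 7 markers 4 entered the test, and of those 3 were called higher in old ND and 2 in old HFD against young ND, while Tnfrsf17 had 0 reads in every mouse. The part of plasma cells in the Hsp90b1 difference was not tested.

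**Figure D4:**
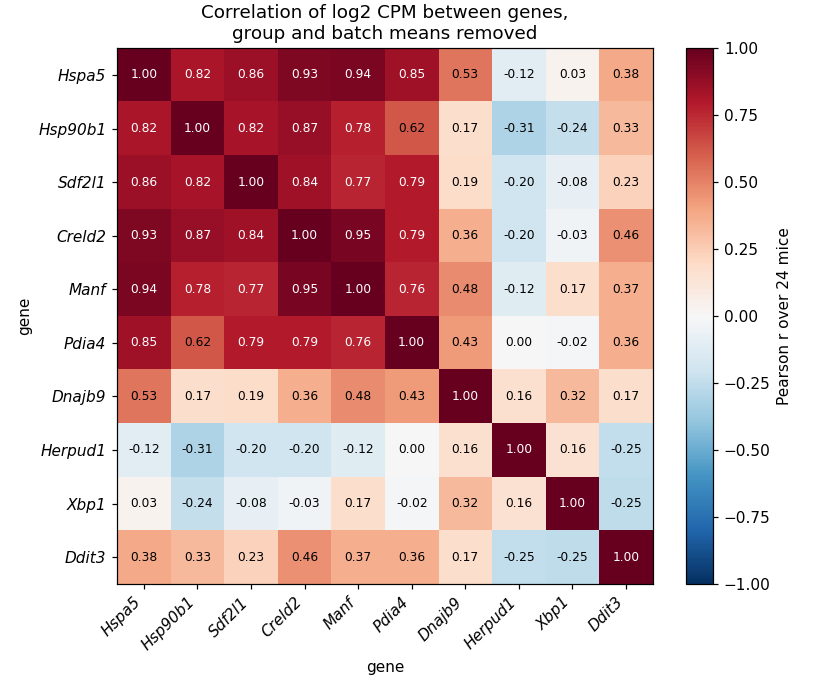
Pearson r over 24 mice between every pair of the 10 genes (rows and columns) on log2 CPM with group and batch means removed, coloured from blue (-1) to red (1). The 6 genes in the upper left, Hspa5 to Pdia4, have r of 0.62 to 0.95 with each other, while Herpud1 and Xbp1 have r near or below 0 with most of them.

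The likeness was also ranked over all tested genes. When each gene was set against the mean of the other 9, Hspa5 (r = 0.95) and Manf (r = 0.92) each ranked 1 of 13574, Creld2 (r = 0.90) ranked 2 and Pdia4 (r = 0.82) ranked 3. Sdf2l1 ranked 14, Hsp90b1 35, Dnajb9 240, Ddit3 999, Xbp1 5680 and Herpud1 8844. The 5 genes outside the list most like its mean were Syvn1 (r = 0.90), the ubiquitin ligase HRD1, Edem1 (r = 0.86), a mannosidase-like factor that targets glycoproteins for degradation, Ero1b (Ero1lb in the files, r = 0.84), a disulfide oxidase, Dnajb11 (r = 0.83), a BiP cochaperone, and Pdia3 (r = 0.81), a disulfide isomerase. These values are a description over 24 mice, without a test.

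The wider pathway was followed in 77 genes in 5 lists, all of which entered the test. In the chaperone and disulfide enzyme list 9 of 19 had r over 0.5 with the mean of the 10 genes, as did 8 of 19 in the degradation list and 9 of 20 in the translocation list, compared with 1.27% of all tested genes. Of the 9 sensors and transcription factors and the 10 PERK and ATF4 targets, 0 had r over 0.5, and their median r was 0.18 and 0.07. Among the ATF4 targets, Cebpb had r = -0.47.

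In old HFD against young ND, 29 of the 77 wider genes were called, 37.7% beside 30.2% of all tested genes. By direction, 17.3% of all tested genes were called higher in this comparison and 12.9% lower. Of the 9 sensors and transcription factors 4 were lower: Ern1, the IRE1 kinase (21.6 to 44.3 CPM in old HFD and 51.8 to 78.7 CPM in young ND, with no overlap, as for 4.27% of all tested genes in that direction, log2 fold change -0.86, adjusted p = 0.000979 from edgeR), Eif2ak3 (log2 fold change -0.55), Mbtps1 (-0.54), the protease that cuts ATF6, and Atf6 (-0.36). Of the 19 chaperones and disulfide enzymes 5 were lower and 1 was higher. Hyou1, the exchange factor of BiP, measured 64.1, 125 and 220.2 CPM (lowest, median and highest) in old HFD and 180.2, 277 and 347 CPM in young ND, a log2 fold change of -1.08 (adjusted p = 0.00285 from edgeR), and Ero1b and Ppib were lower by log2 fold changes of -0.84 and -0.51.

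Of the 19 genes of endoplasmic reticulum-associated degradation 9 were lower and 0 higher in old HFD against young ND, with a list median of -0.31 where all tested genes had 0.04. Ube2g2 and Ube2j1, ubiquitin-conjugating enzymes, fell by 0.55 and 0.52 on the log2 scale, Nploc4, a cofactor of the extracting ATPase, fell by 0.65 and Edem3 fell by 0.55. Of the 20 translocation and secretory entry genes 5 were lower and 3 higher: the coat protein gene Sec31a had a log2 fold change of -0.65, the translocon gene Sec62 had 0.71, and the signal peptidase genes Spcs1 and Sec11c had 0.70 and 0.58. Of the 10 PERK and ATF4 targets 1 was higher (Cebpb, 0.81) and 1 lower (Ppp1r15b, -0.36). The count of called wider genes ran from 23 to 32 when each mouse was left out in turn, and was 29 without old ND replicate 4.

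**Figure D5:**
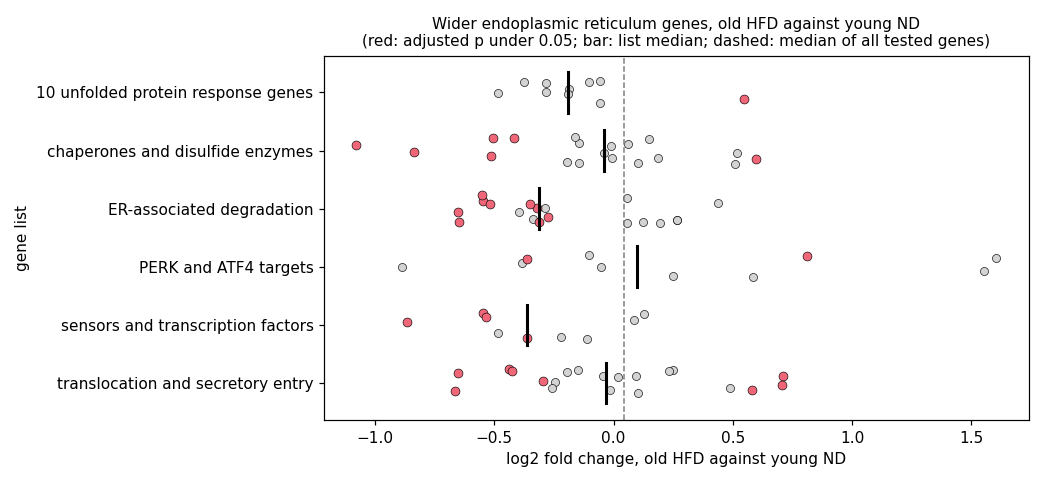
The log2 fold change of single genes in old HFD against young ND (horizontal axis) for the 10 genes and the 5 wider lists (rows), with red points for adjusted p under 0.05, a bar for the list median and a dashed line for the median of all tested genes, 0.04. Degradation genes and sensors lie mostly to the left, with list medians of -0.31 and -0.36.

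In the other comparisons the share of the 77 genes called was 2.6% with HFD in young mice, 3.9% with HFD in old mice and 3.9% with age on the normal diet, where 3.5%, 3.01% and 8.5% of all tested genes were called. With HFD in young mice 2 were lower: Pdia5, a disulfide isomerase, by a log2 fold change of -0.48, and Asns, asparagine synthetase, an ATF4 target, which measured 3.31, 5.10 and 11.7 CPM (lowest, median and highest) in young ND and 0.113, 1.28 and 2.91 CPM in young HFD, a log2 fold change of -2.48 (adjusted p = 0.0195 from edgeR) without overlap, as for 3.06% of all tested genes in that direction. With HFD in old mice 3 were higher: Creb3l3, the liver-enriched membrane-bound factor CREBH, by 0.50, Sec62 by 0.78 and Spcs1 by 0.79. With age on the normal diet Edem3 (-0.53) and Creb3l3 (-0.41) were lower and Atf3 was higher, at 2.06 overall but 0.60 in batch 1 and 3.25 in batch 2. With age on HFD edgeR called 0 of the 77, and 28 of them (36.4%) had an unadjusted p under 0.05, compared with 21% of all tested genes. DESeq2 called 4 of the 77 with HFD in young mice, 7 with HFD in old mice and 6 with age on HFD, where it called 9.24%, 8.27% and 6.32% of all tested genes. In the interaction edgeR and DESeq2 called 0, with 6 (7.79%) under an unadjusted p of 0.05 beside 9.18% of all tested genes. These counts moved with single mice. The 2 calls with HFD in young mice became 0 without young ND replicate 2 or young HFD replicate 5 and 4 without old HFD replicate 2, and the 3 calls with HFD in old mice became 0 without old ND replicate 2 and 6 without old HFD replicate 1 or 5. The 3 calls with age on the normal diet became 0 without young ND replicate 5 and 1 without old ND replicate 4, where Atf3 was not called, and the 0 calls with age on HFD became 6 without old HFD replicate 5.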

How the data were processed

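The authors aligned reads to mm10 with STAR 2.7.3a and deposited raw counts per gene, made with HTSeq 0.11.2 and not normalized. The deposited FPKM values came from CuffLinks and were adjusted between batches by the authors with ComBat. The handling of strand and multiply mapped reads is not given in the sources used here, and each column of either table matched a sample (0 did not).

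Counts were tested with edgeR 4.0.16 (R 4.3.3): genes were kept by filterByExpr (minimum count 10), scaled by TMM and fitted for group and batch over 24 mice with the quasi-likelihood test, and p-values were adjusted by Benjamini-Hochberg over 13583 genes, with a threshold of 0.05. The SE is the log2 fold change over the square root of F. Replicates are mice by their labels, and any pair within a group differed by at least 14.5 in chi-square per degree of freedom. Batches are those named in the sample titles. Residuals of log2 CPM (prior count 2) from an additive fit of group and batch gave the correlations. Those within single groups used log2 CPM itself. Alternatives were DESeq2 1.42.0, RLE scaling, no count filter, no batch term, the replicate number as a block, only the groups compared, single batches, limma 3.58.1 on log2(FPKM + 1) or log2(FPKM + 0.1), and leaving out each mouse. The limma fits kept the batch term, although ComBat had adjusted the FPKM, and tested every gene whose values varied. The edgeR script was tested on simulated data. The 10 genes and all lists were chosen with earlier results of these data known. Beyond the 10 genes, those called in a list were named, at most 4 per list and comparison by adjusted p, with the 5 genes most like the 10. In every group of 6 the highest and lowest mouse were checked with Dixon's ratio (critical value 0.625), and 0 of 40 gene-group sets exceeded it.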

Additional observations from a re-analysis of the deposited data

How the results depend on the processing

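The number of the 10 genes past the threshold stayed at 0 in every alternative for HFD in young mice, HFD in old mice, age on HFD and the interaction. For old ND against young ND, where edgeR called 0, the count was 1 without the count filter (Dnajb9, adjusted p = 0.0110), 1 with only those groups in the fit (Dnajb9, adjusted p = 0.0232) and between 0 and 1 when each mouse was left out (Dnajb9 without old ND replicate 5). For old HFD against young ND, where edgeR called 1, it was 2 without the count filter (Dnajb9, adjusted p = 0.00696, and Sdf2l1, adjusted p = 0.0486, but not Hsp90b1, adjusted p = 0.0544) and 0 with no batch term, with only those groups, in batch 1, in batch 2 and by limma at either pseudocount. It lay between 0 and 2 when each mouse was left out, and DESeq2 and RLE scaling kept 1. Groups share replicate numbers, but these are different mice: of 36 same-number pairs 21 correlated above 0.1 (mean 0.182), and the mean was -0.0467 once batch was removed, so the numbers were not taken as pairs. With the replicate block the count was 1 for old ND against young ND (Herpud1, log2 fold change -0.48, adjusted p = 0.0435) and 0 for old HFD against young ND. Of 2030 recomputed values 0 reversed a call, 20 lost one and 11 gained one, and the causes were not tested. Only 1 value was called by the main edgeR fit, Hsp90b1 in old HFD against young ND, and all 20 losses were of that call. It was kept in 14 of its 34 alternatives. Among the values that the main fit did not call, 101 recomputed values changed sign. Ddit3 had the lowest counts of the 10 genes, with as few as 62 reads, and the effect of depth was not tested.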

Other observations

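The deposited FPKM values were not used to rank the 10 genes, because they followed gene length with introns. Over 10509 tested genes with a mean FPKM above 0.1, the length implied by CPM over FPKM had a Spearman rho of 0.999 with the genomic span of the gene and 0.68 with its annotated exon length. The implied length was a median of 0.96 of the span and 4.15 times the exon length, and 8.38 times the exon length in the 4548 genes whose span was at least 5 times their exons. For Manf, with 3524 exon bases in a span of 53668, the mean FPKM was 2.32, although it had 34.6 CPM per kb of exon. Sdf2l1 and Dnajb9, whose levels per exon were 32.6 and 29.3 CPM per kb with ranges over mice that overlapped that of Manf, had a mean FPKM of 21.9 and 18.1. Ratios between mice for 1 gene do not contain this length.

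The genes most like Herpud1 over the 24 mice, on residuals of log2 CPM, were Slc35e2 (r = 0.86) and Lpin2 (r = 0.84), and those most like Xbp1 were Mblac2 (r = 0.71) and Foxa1 (r = 0.69), none of which is in the pathway lists (all named by rank after the values were seen). The genes most like Hsp90b1 were Magt1 (r = 0.93), Pdia3 (r = 0.92) and Pdia6 (r = 0.91). These are the highest of all tested genes and carry no test.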
